A study of Bos taurus with 11 samples.

Results

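The genes described here build or run motile cilia, the beating hair-like extensions that cover a share of the epithelial cells lining the oviduct and the uterus. Members were the probes named after any of 39 listed genes, together with every probe named as an axonemal dynein heavy chain (DNAH followed by a number). This gave 43 genes on 68 probes, out of 25325 gene names on 43653 probes. HYDIN, IFT172 and PIFO, which are on the list, were not analysed here, because no probe carried those names. A motile cilium is built around the axoneme, a ring of paired microtubules called doublets that surrounds a central pair. Outer and inner dynein arms, motor complexes attached to the doublets, slide the doublets against each other; radial spokes and the nexin link turn that sliding into bending; intraflagellar transport carries the parts to the tip; and the transcription factors FOXJ1 and the RFX family switch the genes on. In the bovine endometrium multiciliated cells lie among secretory cells in the luminal epithelium and at the openings of glands.

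Endometrial tissue was taken from 11 cows (Bos taurus) on day 7 of the oestrous cycle, and the total RNA of each cow was hybridised to its own 1-colour array. The 6 fertile cows had become pregnant within 3 attempts at embryo transfer or insemination, and did so again at the first transfer after sampling. The 5 subfertile cows had failed 3 times in succession although no genital abnormality was found and their cycles looked normal. The comparison addresses how the endometrium of the groups differed at this stage of the cycle. Breed, age and treatment are not given in the sources used here, and the tissue is a mixture of epithelium, stroma, vessels and immune cells. In such bulk RNA, fewer ciliated cells and less cilia RNA in each ciliated cell cannot be told apart.

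A level below is the log2 processed signal of a probe minus the 75th percentile of its array, so that a negative level lies below most of the brighter probes of that array. Levels of different genes are not comparable, since each probe has its own brightness. A difference is the subfertile mean minus the fertile mean on this log2 scale (n = 5 and n = 6) with the standard error that limma gave, and adjusted p-values are limma's with Benjamini-Hochberg adjustment over all 31877 probes tested. A gene passed the test where its adjusted p was below 0.05. Where several probes of a gene were tested, the brightest stands for it. The number of arrays limits the precision of every value.

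Of the 43 genes, 38 were bright enough to be tested, and 35 of these were well above background on all 11 arrays. DNAH2, DNAH5, RFX3, SPAG16 and SPAG17 were too dim. The probes of the genes that passed the test are given here, because each level is the signal of these bases alone. The dimmer FOXJ1 probe among them was not tested. SPAG6 did not pass on its brightest probe, which is given with the SPAG6 probe that did. Every probe is 60 bases long, and the 30 bases at its start are printed in the direction in which the array files list them, in lower case throughout since no stretch is singled out. Positions are those of the whole probe on the bovine build Btau_3.1, which the array was annotated on. Whether a probe lies in a coding exon or an untranslated region was not analysed here.
FOXJ1, brighter probe, chr19:57262765-57262824, plus strand: ctgggcccagactgccccccagtgcaggcc
FOXJ1, dimmer probe, chr19:57261970-57262029, plus strand: aacttgtccctgaacaagtgcttcatcaag
DNAH9, chr19:31316200-31316259, plus strand: tcctggaggaaatactggagcgggtgacag
DNAL1, brighter probe, chr10:87579499-87579558, plus strand: tcttagaattacagcagcagccctagaatc
DNAL1, dimmer probe, chr10:87579003-87579062, plus strand: taccccagtaattaaagaagatgaggaaga
CCDC39, chr1:88431055-88431114, plus strand: cagaccaactagtgctagcagtgcctccag
LRRC6, chr14:8119990-8120049, plus strand: acggggtagacacagttattttcagtatta
CAPS, chr7:17031052-17031111, minus strand: ggccagcgttttagttaaaagttttaatgt
SPAG6, brightest probe, chr13:22973673-22973732, plus strand: agtggtttgaatgtatgaggaactagtcac
SPAG6, the probe that passed the test, chr13:22949222-22949281, plus strand: agtgatattgcaaagcattctccagagtta

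FOXJ1 was the member with the greatest difference, and 5 structural or accessory genes also rose in the subfertile cows: DNAH9, DNAL1, CCDC39, LRRC6 and CAPS. These 6 of 38 genes are 15.8% of the members tested, which is near the background: 14.2% of all 18445 genes tested passed the test in the same direction. No member passed the test in the other direction, against 7.89% of all genes, and 14 of 38 members had an unadjusted p below 0.05 with limma (36.8%, against 36.7% of all genes). The difference was above 0 for 37 of 38 members, against 55.6% of all genes, and its median was 0.70, against 0.06. Groups that did not overlap, with every subfertile cow above every fertile cow, occurred in 1 of 38 members (2.63%) and in 9.42% of all genes. Among all probes that passed the test, 66.8% were higher in the subfertile cows, a share that was 50.8% with quantile normalization and 47.6% with median centring; the same 6 members passed, all higher, under both.

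**Figure D1:**
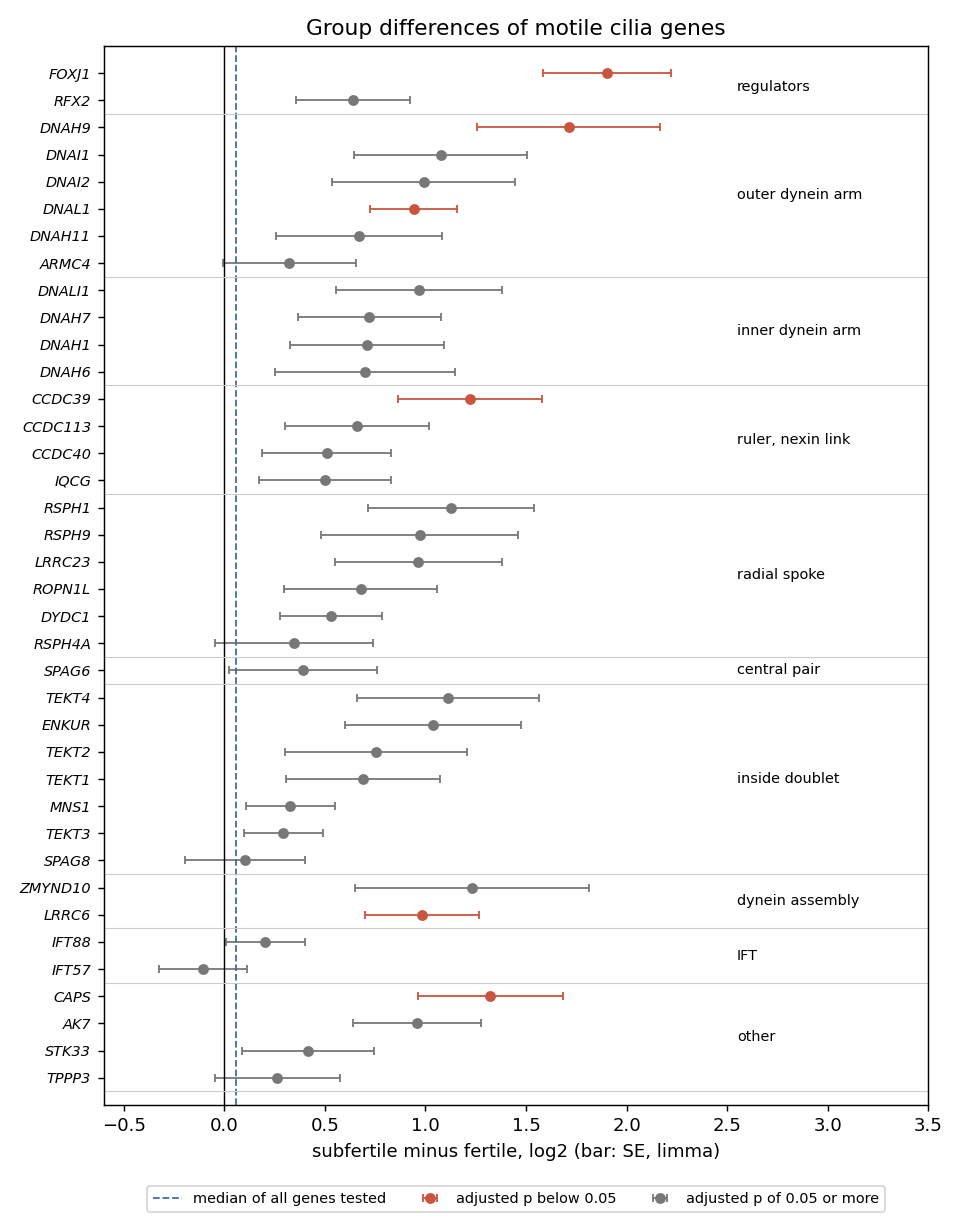
Difference between groups (subfertile minus fertile, log2, x axis) of the 38 tested motile cilia genes, ordered by their role, with limma's standard error as bars; red points passed the test and the dashed line is the median of all genes tested. Of the 38 points 37 lie right of 0, from 0.10 for SPAG8 to 1.90 for FOXJ1, and IFT57 alone lies left of it at -0.11.

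The regulators come first. FOXJ1 is the forkhead transcription factor required for motile cilia. Its level in the fertile cows ranged from -5.41 to -4.25, with a median of -4.60. In subfertile cows 1 to 5 it was -3.34, -1.69, -2.95, -3.53 and -2.35. Every subfertile cow was above every fertile cow, and the lowest subfertile cow was cow 4. The means were -4.68 ± 0.40 (SD, n = 6) and -2.78 ± 0.75 (SD, n = 5), a difference of 1.90 ± 0.32, or 3.73-fold (limma adjusted p = 0.00273). With each cow left out in turn the difference lay between 1.63 and 2.09, and limma's adjusted p between 0.00275 and 0.00876. The dimmer FOXJ1 probe was well above background in 1 of 6 fertile and 3 of 5 subfertile cows and was not tested. It lay from -7.93 to -6.54 in the fertile cows and at -5.40, -3.70, -6.33, -6.18 and -4.54 in subfertile cows 1 to 5, which are in part background values. The background itself was higher on this scale in the subfertile cows: over the 7800 probes that were above background on none of the 11 arrays, the median difference was 0.82 and 39.8% had every subfertile cow above every fertile one. The dimmer probe is therefore not counted with the brighter one. Among tested genes with a mean level over the 11 cows from -4 to -2, where the brighter FOXJ1 probe lies, the median difference was 0.05 over 3259 genes and 0.70 over 11 members. Below -4 it was 0.11 over 3661 genes and 0.98 over 6 members, none of which passed.

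RFX2 and RFX3 are winged-helix factors that act with FOXJ1 on cilia genes. RFX2 ranged from -2.64 to -1.97 in the fertile cows (median -2.38) and was -1.81, -0.74, -1.87, -2.74 and -1.39 in subfertile cows 1 to 5. Cow 4 was below every fertile cow and the other subfertile cows were above all of them. The difference of RFX2 was 0.64 ± 0.28 and did not pass (limma adjusted p = 0.125). RFX3 was well above background in 2 of 6 fertile cows and 1 of 5 subfertile cows; its levels lay between -6.86 and -5.97 in the fertile and between -7.16 and -5.38 in the subfertile cows, so the groups overlapped.

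**Figure D2:**
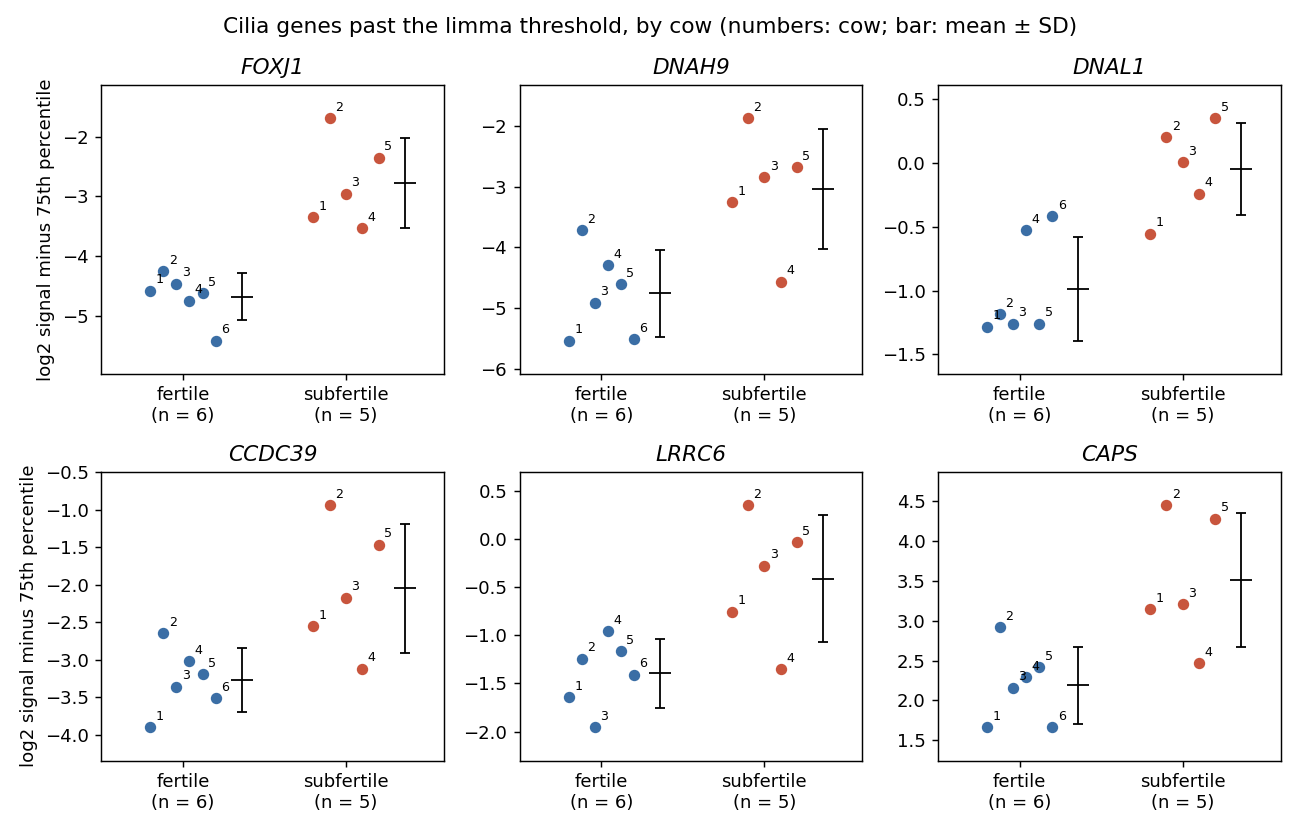
Level of each of the 6 genes that passed the test in every cow (log2 relative to the 75th percentile of the array, y axis), fertile and subfertile cows side by side; points carry the number of the cow, and bars are the mean and SD of each group. The groups are apart for FOXJ1; in the other 5 panels at least 1 subfertile cow lies within the range of the fertile cows.

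In the outer dynein arm, the motor that sets beat frequency, 2 of 6 tested members rose (33.3%, against 14.2% of all genes). DNAH9, a heavy chain of the distal outer arm, ranged from -5.53 to -3.71 in the fertile cows (median -4.75), and was -3.26, -1.88, -2.84, -4.56 and -2.67 in subfertile cows 1 to 5. Cow 4 fell within the fertile range and the other 4 subfertile cows lay above it. The difference was 1.71 ± 0.45, or 3.28-fold (limma adjusted p = 0.0212); without subfertile cow 2 the adjusted p was 0.0528 and without subfertile cow 5 it was 0.0504. DNAL1, a light chain bound to the heavy chain motor, ranged from -1.28 to -0.42 in the fertile cows (median -1.22). In subfertile cows 1 to 5 DNAL1 was -0.55, 0.20, 0.01, -0.24 and 0.35. Here cow 1, not cow 4, was the subfertile cow within the fertile range. The difference of DNAL1 was 0.94 ± 0.22, or 1.92-fold (limma adjusted p = 0.0115), and its dimmer probe gave 0.56 ± 0.18 (limma adjusted p = 0.0430). DNAL1 passed with any 1 cow left out.

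The intermediate chains DNAI1 and DNAI2, which anchor the outer arm to its doublet, had differences of 1.07 ± 0.43 (limma adjusted p = 0.0942) and 0.99 ± 0.46 (limma adjusted p = 0.139) and did not pass. The fertile cows had DNAI1 levels from -5.53 to -3.87, and the subfertile cows, in order, had -3.79, -2.73, -3.79, -5.22 and -2.80. All but cow 4 were above the fertile range. The other 2 outer arm members, the heavy chain DNAH11 and the docking protein ARMC4, did not pass, with differences of 0.67 and 0.32.

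None of the 4 tested inner arm members, which shape the bend of the cilium, passed. An unadjusted p below 0.05 with limma occurred in 1 of the 4 (25%, against 36.7% of all genes). The 4 differences lay close together, from 0.70 to 0.97. DNALI1, a light intermediate chain, differed by 0.97 ± 0.41 (limma adjusted p = 0.114). The heavy chain DNAH7 differed by 0.72 ± 0.36 (limma adjusted p = 0.166). DNAH7 was -0.57, 0.83, -0.23, -1.53 and 0.21 in subfertile cows 1 to 5 and from -1.35 to -0.29 in the fertile cows. Subfertile cow 4 was thus below every fertile cow, and cows 2, 3 and 5 above all of them.

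CCDC39 forms, with CCDC40, the ruler that sets the repeat length along the doublet. CCDC39 was the gene that passed among 4 members of the ruler and nexin link (25%, against 14.2% of all genes as higher). It ranged from -3.90 to -2.64 in the fertile cows (median -3.27), and was -2.55, -0.94, -2.17, -3.12 and -1.46 in subfertile cows 1 to 5. Only cow 4 was within the fertile range. The difference was 1.22 ± 0.36, or 2.33-fold (limma adjusted p = 0.0311). It no longer passed without fertile cow 1, 3 or 6 or without subfertile cow 2, 3 or 5, each left out alone (limma adjusted p from 0.0504 to 0.0759). CCDC40, the partner of CCDC39, differed by 0.51 ± 0.32 (limma adjusted p = 0.274). CCDC113, a protein that links the nexin complex to a spoke, differed by 0.66 ± 0.36 (limma adjusted p = 0.206). Both had subfertile cows within the fertile range.

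Of the 6 radial spoke members none passed and 2 had an unadjusted p below 0.05 with limma (33.3%, against 36.7% of all genes). The differences of the 6 members had a median of 0.82 and ran from 0.34 to 1.13. RSPH1, of the spoke head, differed by 1.13 ± 0.41 (limma adjusted p = 0.0718). The 6 fertile cows had RSPH1 levels from -2.96 to -1.03, while the 5 subfertile cows, in order, had -1.38, 0.28, -1.29, -1.94 and -0.18. Only cows 2 and 5 were above the fertile range. RSPH9, also of the spoke head, differed by 0.97 ± 0.49 (limma adjusted p = 0.174) and spanned -3.40 in subfertile cow 4 to -0.32 in subfertile cow 2. SPAG6, the central pair member tested, is an armadillo-repeat protein, and its 4 probes gave unequal results. The brightest differed by 0.39 ± 0.37 (limma adjusted p = 0.475), and the other three by 1.10 ± 0.36 (limma adjusted p = 0.0473), 0.91 (limma adjusted p = 0.0664) and 0.89 (limma adjusted p = 0.0856). The latter pair of probes overlap on the genome. Over all members with more than 1 tested probe, the probes had the same sign in 11 of 12 genes, SPAG8 being the exception.

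Of the 7 members inside the doublet, none passed, and the median difference was 0.69. An unadjusted p below 0.05 with limma occurred in 2 of the 7 (28.6%, against 36.7% of all genes). TEKT4, of the tektin filaments that run along the doublet, differed by 1.11 ± 0.45 (limma adjusted p = 0.0989). ENKUR, a protein of the inner wall of the doublet, differed by 1.04 ± 0.44 (limma adjusted p = 0.109), with -1.11, 0.33, -1.08, -2.50 and 0.15 in subfertile cows 1 to 5 and -2.34 to -1.29 in the fertile cows. Subfertile cow 4 was below the fertile range of ENKUR and the other subfertile cows were above it. The other 5 differences ran from 0.10 for SPAG8 to 0.75 for TEKT2.

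LRRC6 and ZMYND10 act together in the cytoplasm to assemble dynein arms before transport. LRRC6 rose: it ranged from -1.96 to -0.96 in the fertile cows (median -1.33) and was -0.76, 0.35, -0.28, -1.36 and -0.04 in subfertile cows 1 to 5. Again only cow 4 lay within the fertile range. The difference was 0.98 ± 0.28, or 1.97-fold (limma adjusted p = 0.0295), and LRRC6 did not pass without fertile cow 1 or 3 or subfertile cow 2, 3 or 5 (limma adjusted p from 0.0585 to 0.0716). ZMYND10 had a larger difference with a larger error, 1.23 ± 0.58 (limma adjusted p = 0.148). It was well above background in 4 of 5 subfertile cows. Its subfertile values ran from -6.15 in cow 4 to -2.35 in cow 2 and enclosed the whole fertile range of -5.97 to -4.28.

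The intraflagellar transport members IFT57 and IFT88, parts of the transport trains that immotile primary cilia also need, had, with SPAG8, the 3 differences nearest to 0. IFT88 differed by 0.20 (limma adjusted p = 0.486). IFT57 differed by -0.11 (limma adjusted p = 0.759) and was the member below 0. Among 4 other cilia-associated members CAPS passed (25%, against 14.2% of all genes as higher). CAPS encodes calcyphosine, a calcium-binding protein abundant in ciliated epithelium; it ranged from 1.66 to 2.92 in the fertile cows (median 2.23) and was 3.15, 4.46, 3.21, 2.46 and 4.28 in subfertile cows 1 to 5. Cow 4 was within the fertile range. The difference was 1.32 ± 0.36, or 2.50-fold (limma adjusted p = 0.0236), and CAPS did not pass without fertile cow 1 or subfertile cow 2 or 5 (limma adjusted p from 0.0510 to 0.0580). AK7, an adenylate kinase of the axoneme, had 0.96 ± 0.32 (limma adjusted p = 0.0503). STK33, a kinase, had 0.42 (limma adjusted p = 0.388), and TPPP3, a tubulin-binding protein, had 0.26.

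The subfertile cows differed among themselves in much the same order from member to member. This pattern was noticed after the values were seen, and is given as a description. Cow 2 was the highest of the 5 in 32 of 38 members, against 17.3% of all genes tested. Cow 4 was the lowest in 32 of 38, against 25.3% of all genes. Cows 2 and 5 were above cows 1, 3 and 4 in 34 of 38 members, against 12.2% of all genes. The complete order of cows 2, 5, 3, 1 and 4 occurred in 23 of 38 members, against 2.24% of all genes.

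Averaged over the 38 members, the level was -1.62, -0.35, -1.37, -2.30 and -0.66 in subfertile cows 1 to 5. The fertile cows lay between -2.30 and -1.62. The mean of cow 4 was thus at the lowest fertile cow, that of cow 1 at the highest, and those of cows 2, 3 and 5 above the fertile range. The span was 1.95 among the subfertile and 0.68 among the fertile cows. By gene, cow 2 was above every fertile cow in 36 of 38 members, cow 5 in 33, cow 3 in 18 and cow 1 in 13. Over all genes tested the shares for these cows, in that order, were 29.4%, 29.1%, 25.7% and 30.7%. The count of cow 1 was thus near its share of all genes. Cow 4 was above every fertile cow in 2 members, FOXJ1 and DNAL1, and below every fertile cow in 15. Of all genes tested, cow 4 was above every fertile cow in 22.0% and below every fertile cow in 19.3%. The high FOXJ1 of cow 4 therefore stood beside low levels of many axoneme genes. Without cow 4, 21 of 38 members passed the test, all higher, while 14.2% of all probes tested passed as higher, against 14.8% with every cow. Without cow 2, or without cow 5, 2 members passed, DNAL1 and FOXJ1, and 9.94% or 11.2% of all probes passed as higher. Without fertile cow 1, 3 members passed, beside 11.4% of all probes.

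**Figure D3:**
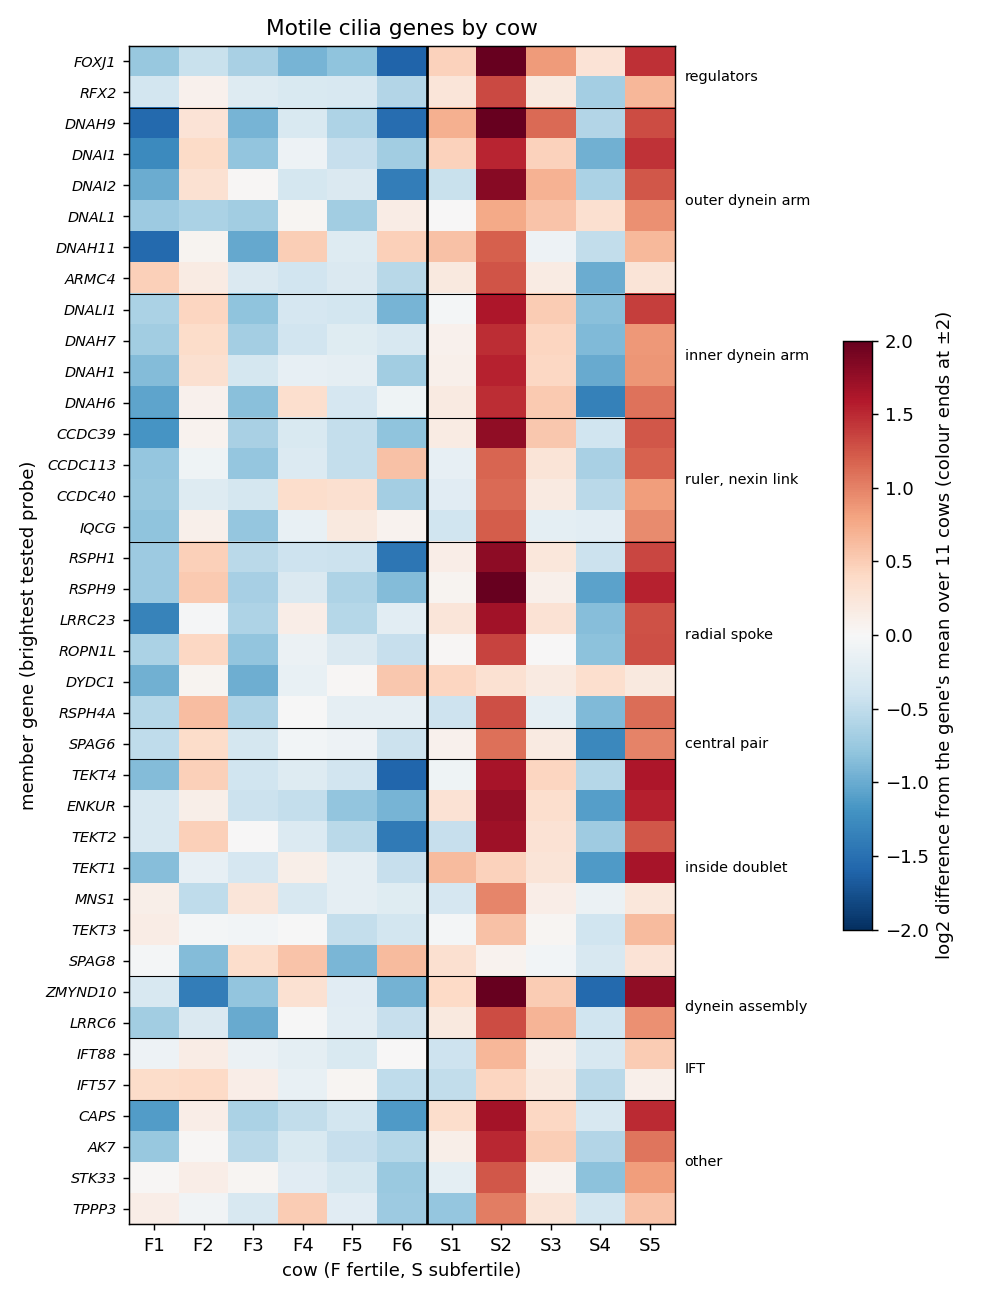
Level of each tested motile cilia gene in each cow, shown relative to the mean of that gene over the 11 cows (log2, colour), with genes ordered by role and cows side by side. Subfertile cow 2 is the highest of its group in 32 of 38 genes and subfertile cow 4 the lowest in 32 of 38.

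The spread of members was wide in the subfertile group. The SD over the 5 subfertile cows had a median of 0.85 over the members and 0.25 over all genes. Over the 6 fertile cows these medians were 0.44 and 0.27. The subfertile SD was above the 90th percentile of all genes (0.70) in 29 of 38 members, and the fertile SD above its own (0.63) in 4 of 38. The SD was larger in the subfertile than in the fertile cows in 34 of 38 members (89.5%) and in 44.3% of all genes. DYDC1, a radial spoke gene, went against this, with an SD of 0.61 in the fertile and 0.11 in the subfertile cows.

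**Figure D4:**
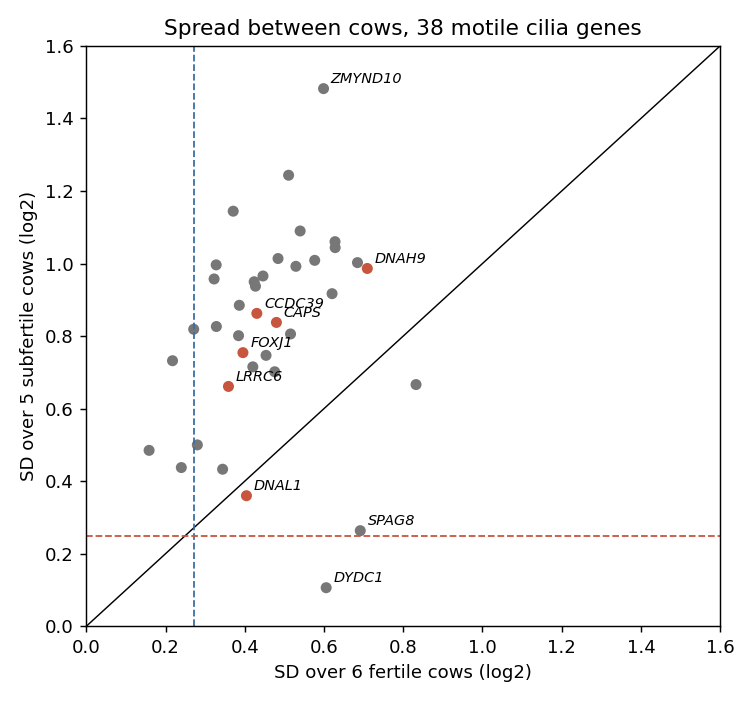
SD of each tested gene over the 5 subfertile cows (y axis) against its SD over the 6 fertile cows (x axis), both in log2 units, for the 38 motile cilia genes, with the line of equal SD; red points passed the test, and dashed lines are the medians over all genes (0.27 fertile, 0.25 subfertile). Of the 38 points 34 lie above the line of equal SD.

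Other genes of the cilium, from lists that share no gene with the members, were read in the same way. The 35 tested other axoneme genes were all above 0, from 0.09 to 1.42, with a median of 0.76, where 55.6% of all genes were above 0. Of these 35, 4 rose (11.4%, not above the 14.2% of all genes) and 0 fell. WDR78, an intermediate chain of an inner arm, rose by 1.42 ± 0.23 (limma adjusted p = 0.00225). RTDR1, a radial spoke protein, rose by 0.98 ± 0.19 (limma adjusted p = 0.00539). CCDC146 rose by 1.07 ± 0.32 (limma adjusted p = 0.0345), but not with any 1 of 8 cows left out, namely fertile cow 1, 3, 4, 5 or 6 or subfertile cow 2, 3 or 5 (limma adjusted p from 0.0552 to 0.0841). MORN2, named after its values were seen, rose by 0.58. GAS8, of the nexin link, had a difference of 0.09 (limma adjusted p = 0.842). The dynein assembly factor DNAAF1, named LRRC50 on the array, had 0.97 ± 0.40 (limma adjusted p = 0.104) on the brighter of its 2 tested probes. The other LRRC50 probe gave 1.24 and passed as higher. The other axoneme genes shared the order of the subfertile cows: cows 2 and 5 were above the rest in 31 of 35 and the full order held in 21 of 35.

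Of 9 tested genes of the program that makes multiciliated cells, 2 rose (22.2%) and 1 fell, and the median difference was 0.14. Among all genes 14.2% rose and 7.89% fell. CCDC78, which acts in making the many basal bodies, rose by 1.05 ± 0.31 (limma adjusted p = 0.0306). It did not pass without fertile cow 1 or 5 or subfertile cow 2, 3 or 5 (limma adjusted p from 0.0521 to 0.0751). TP73, a transcription factor upstream of FOXJ1, had 0.91 ± 0.30 (limma adjusted p = 0.0477), was well above background in 3 of 6 fertile and 2 of 5 subfertile cows, and passed in 2 of the 11 fits that left a cow out, those without fertile cow 3 or subfertile cow 4 (limma adjusted p otherwise from 0.0571 to 0.0996). PLK4, the kinase of centriole duplication, fell by 0.60 (SE 0.17, limma adjusted p = 0.0272), on 1 of its 2 tested probes, and not without fertile cow 1 or 3 or subfertile cow 3 or 4 (limma adjusted p from 0.0544 to 0.0620). With normexp background correction the PLK4 difference was 0.02. MYB, an early regulator, had 0.36 (limma adjusted p = 0.525). MCIDAS and CCNO were not analysed here, because no probe carried those names.

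Of 19 other intraflagellar transport genes tested, 2 rose and 1 fell, and 12 were above 0, with a median of 0.31. KIF17, a kinesin motor, rose by 1.51 ± 0.29 (limma adjusted p = 0.00471). IFT80, a train component, rose by 0.999 ± 0.13 (limma adjusted p = 0.00072), on 4 of its 7 tested probes, the lowest of which gave 0.02. TTC21B, of the returning trains, fell by 0.61 (SE 0.12, limma adjusted p = 0.00479) on its brightest probe, while the other gave 0.17.

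**Figure D5:**
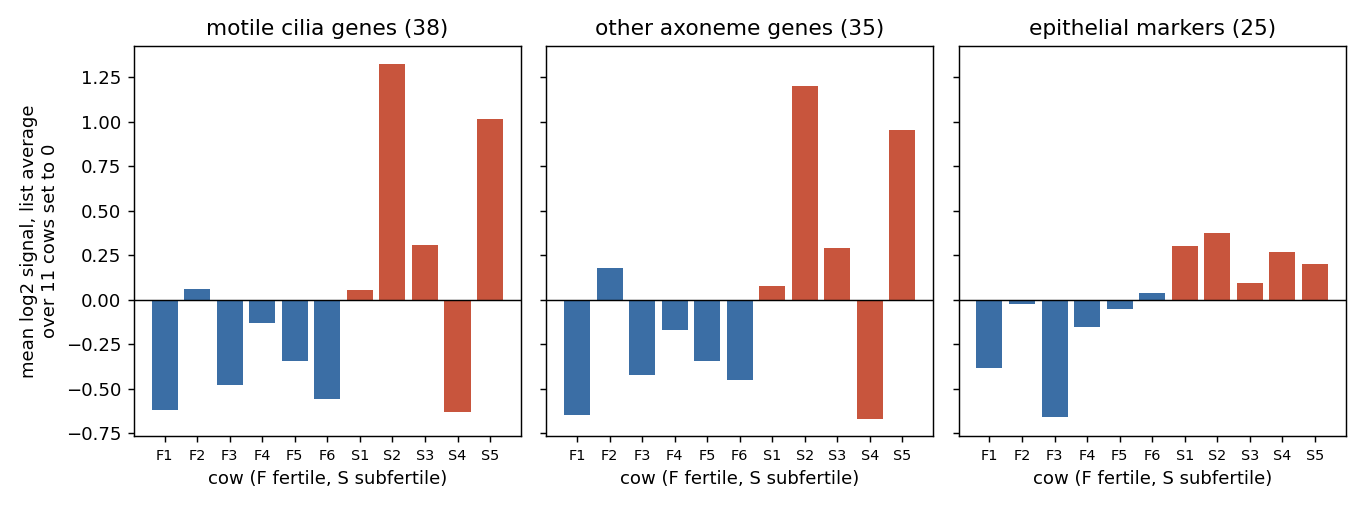
Mean log2 level of 38 motile cilia genes, 35 other axoneme genes and 25 epithelial markers in every cow (bars, y axis), with the average of each list over the 11 cows set to 0; F marks fertile and S subfertile cows. Both sets of cilia genes are highest in S2 and S5 and lowest among the subfertile cows in S4, while the epithelial markers span 0.28 over the subfertile cows.

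Markers of the cell types in the biopsy were read beside these values. Among all genes tested, 14.2% rose and 7.89% fell. Of 25 tested epithelial markers 11 rose (44%), among them the claudin CLDN3 with a difference of 1.08, and 0 fell. The difference was above 0 for 21 of the 25. CDH16, named after its values were seen, went the other way at -1.07 and did not pass (limma adjusted p = 0.0677). It was well above background in 6 of 6 fertile and 1 of 5 subfertile cows. The mean level of the epithelial markers was 0.54 to 1.23 in the fertile and 1.29 to 1.57 in the subfertile cows, with no overlap. All 5 subfertile cows lay within 0.28 of each other, where the members spanned 1.95. With that epithelial mean as a covariate, 0 of 38 members passed and 1 had an unadjusted p below 0.05 with limma. FOXJ1 then had a difference of 2.02 (limma adjusted p = 0.0605). Over all probes, 1114 passed with the covariate and 7074 without it. Of 11 gland secretory markers 3 rose and 0 fell, and 8 were above 0. PAEP rose by 0.72 and LCN2 by 0.71. The largest differences of this list went the other way and did not pass. They were SPP1 at -1.48 (limma adjusted p = 0.0601) and SERPINA14 at -1.36 (limma adjusted p = 0.125), both named after their values were seen. The list mean was 0.42 to 1.65 in the fertile and 0.85 to 1.40 in the subfertile cows.

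Of 15 stromal markers 2 fell, FBN1 by 0.98 and FN1 by 0.80. Another 2 rose, COL3A1 and DCN by 0.53 each, both named after their values were seen. Of the 10 tested COL3A1 probes 2 passed as higher and 2 as lower. For DCN 1 of 9 tested probes passed, as higher, and the lowest gave -0.31. For FN1 6 of 13 tested probes passed, all as lower. The stromal list mean was 2.08 to 2.37 in the fertile and 1.71 to 2.19 in the subfertile cows. Smooth muscle markers rose in 2 of 7 and were above 0 in all 7, with a median difference of 0.82, against 0.70 for the members. The smooth muscle list mean was 1.86 to 3.54 in the fertile and 2.83 to 4.92 in the subfertile cows, highest in subfertile cow 1. Endothelial markers rose in 2 of 7 (PLVAP and TIE1), with means of -1.29 to -0.92 and -1.29 to -0.40. Of 9 immune markers CD79A rose by 1.43 and PTPRC fell by 0.95, with means of -2.31 to -1.80 and -2.33 to -1.79. PTPRC fell on 1 of its 2 tested probes, and the other gave -0.04. Of 7 genes that mark endometrium, HOXA10 was well above background on all 11 arrays, HOXA9 fell by 1.09, WNT7A did not pass at -1.63, and the list mean ran from -0.64 to -0.07 and from -0.97 to -0.20. The part of any cell type in the cilia differences was not tested. Because the epithelial mean did not overlap between the groups, the fit with it as a covariate cannot tell epithelial content and group apart.

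The arrays also differed in ways that go with the groups. The median processed signal was 161 to 452 on fertile and 54.3 to 92.7 on subfertile arrays (p = 0.00216 by an exact permutation test, two-sided; no lower p is possible with 462 splits), and 72.0% to 77.4% and 64.5% to 74.2% of probes were well above background (exact two-sided permutation test, p = 0.0130). For the 10 arrays with a header, 6 slides and 4 scan days were recorded and none held both groups, so group and slide or day cannot be told apart. All subfertile arrays were scanned on 1 day. Subfertile cows 2 and 4, the extremes of the cilia levels, shared a slide. Among fertile cows, those on the slide of cows 2 and 5 exceeded those on the slide of cows 1 and 3 by a median of 0.58 over members, with 30 of 38 above 0, against a median of 0.01 over all genes; for FOXJ1 this was 0.08. With the slide as a random block FOXJ1 alone of the members passed (difference 1.91, limma adjusted p = 0.0198), beside 8.54% of all probes as higher. With the scan day as a random block no member did (FOXJ1, difference 1.94, limma adjusted p = 0.0559), beside 2.47% of all probes as higher. Under either block 6 members had an unadjusted p below 0.05 with limma, and the share of all probes with such a p is not given here. The differences themselves stayed near those without a block, with a member median of 0.69 for the slide and 0.70 for the scan day. Of the other cilia genes that the naming rule chose and that passed, CCDC146, CCDC78, TP73 and PLK4 did not pass under either block (limma adjusted p from 0.113 to 0.307). RTDR1, KIF17 and TTC21B passed with the slide block and not with the scan day block (limma adjusted p = 0.0700, 0.0889 and 0.0768), and WDR78 and IFT80 passed under both.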

How the data were processed

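The deposited scanner files give a fluorescence intensity for each of 45220 spots, and the submitters' processing notes name Agilent Feature Extraction 10.5.1.1. A table of log2 values from the authors served as an alternative; it matched the scanner values within 0.01 for all probes of every array other than fertile cow 1 (17.0%), relative to fertile cow 2. Control spots and outlier spots (1 to 156 an array) were left out. Processed signals were taken to log2, spots of a probe averaged, and the 75th percentile of each array subtracted. Probes well above background on at least 5 of 11 arrays were tested (31877) by lmFit and eBayes of limma 3.58.1 (R 4.3.3), with group as the model's term. The steps were tested on simulated data. The file of fertile cow 6 lacks its header, so its slide and day are unknown and its probes were joined by probe name.

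The members and lists were chosen with earlier results of these data known. Named were FOXJ1, RFX2 and RFX3, in each role all members past the threshold and the 2 others with the largest difference, in each list of cilia genes the 3 with the smallest p and MCIDAS, CCNO, MYB, TP73, GAS8 and DNAAF1, and in each marker list (epithelial, gland secretory, stromal, endometrium, immune, endothelial, smooth muscle) the 2 with the smallest p. A gene named by this rule is left out of the text, although counts hold it. Members also described outside this rule were chosen after their values were seen. Nothing beyond the cow states separate sampling, so p-values set a group difference against the spread between cows within the groups. That spread also holds differences between slides, and the group difference cannot be told apart from slide or scan day. Alternatives changed the background correction, normalization, source of values, filter, variance model, weights, blocks, covariate and probe choice, and left out each cow.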

Additional observations from a re-analysis of the deposited data

Results flagged for a closer look

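Among 76 sets of values (38 motile cilia genes in 2 groups), 0 had a highest or lowest cow set apart from the others by Dixon's test at 95%, although chance alone sets apart about 1 in 20.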

How the results depend on the processing

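Of 1531 values of 64 named genes under the 24 alternatives, 1346 kept their direction and side of the threshold, 125 lost the call, 42 gained one and 18 changed direction, of which PLK4 alone had passed before. With normexp PLK4 was 0.024, WNT7A 0.41 and GAS8 -0.0068. GAS8 was -0.021 with quantile normalization and -0.0060 with median centring. With the epithelial covariate DNAH11 was -0.49, DYDC1 -0.36, IFT57 0.12, IQCG -0.27, RSPH4A -0.25, GAS8 -0.56 and MYB -0.10. With each cow left out, IFT57 ran from -0.23 to 0.015, SPAG8 from -0.072 to 0.23 and GAS8 from -0.073 to 0.32. Probes passing numbered 7074, and 17082 with normexp correction, 12198 without a filter on dim probes, 3676 with the slide and 978 with the scan day as a random block, 1114 with the epithelial covariate, and 4525 (without subfertile cow 2) to 7316 (without fertile cow 6) with each cow left out. Members that rose numbered 6, and 23 with normexp, 1 with the slide block and 0 with the scan day block. With the epithelial covariate 0 members rose, and with each cow left out 2 to 21. Among all probes tested 14.8% passed as higher, and 46.8% with normexp. With the slide block, the scan day block and the epithelial covariate this share was 8.54%, 2.47% and 2.68%. It was 9.94% without subfertile cow 2, where 2 members rose, and 14.2% without subfertile cow 4, where 21 rose. Normexp moved the median of all probes from 0.07 to 0.33 and that of the members to 0.86, and leaving out the filter moved the former to 0.17. No member fell under any alternative. The same 6 members passed with quantile normalization, median centring, the authors' table and the mean of the probes of a gene. Cow numbers are shared between groups but do not pair cows: deviations of same-numbered cows correlated between -0.21 and 0.22, and 1 of 5 subfertile cows correlated best with its own number. With the replicate block 4761 probes and 5 members passed, LRRC6 being lost (limma adjusted p = 0.0747). Dim probes limit DNAH2, DNAH5, RFX3, SPAG16 and SPAG17, for which no test was made with the filter on dim probes.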
